A study of Mus musculus with 69 samples.

Results

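*Esrp1*, *Esrp2* and *Rbm47* encode RNA-binding proteins that regulate splicing in epithelial cells, and their transcript levels are described here in pituitary, hypothalamus and ovary of mice whose *Zeb1* mRNA cannot be bound by the miR-200 microRNAs. The members were taken by symbol, are 3 of the 55964 gene IDs in the count tables, and are present in the tables of each tissue and cohort. No threshold on a measured value enters this choice.

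ESRP1 and ESRP2 are paralogous proteins that bind GU-rich motifs near alternative exons and promote the epithelial form of transcripts such as those of *Fgfr2*, *Cd44*, *Enah* and *Ctnnd1*. RBM47 binds RNA, promotes inclusion or skipping of exons in epithelial cells, and acts as a cofactor of the cytidine deaminase APOBEC1 in RNA editing. ZEB1 is a repressor of epithelial genes, including those of the ESRP proteins, and it is held in check by miR-200 in a mutual repressive loop.

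The libraries came from C57BL/6J females staged for proestrus and fall into 3 genotypes. WT mice carry 2 normal *Zeb1* alleles, 200H mice (Zeb1 200H) are heterozygous and 200M mice (Zeb1 200M) homozygous for a germline knock-in that mutated all 9 miR-200 sites of the *Zeb1* 3′ UTR, a change that is present in every cell. The mouse lines came from 2 targeted embryonic stem cell clones (6B6 and 3C5), and which clone each library came from was not used here. Young mice were virgins of 8 to 12 weeks. Older mice were 28 to 36 weeks old and had been through a breeding trial. Each of the 18 groups by cohort, tissue and genotype held 4 libraries, except 3 in young WT pituitary, older 200M pituitary and older 200M hypothalamus. A library is named by its group and replicate number, and u stands for a young WT pituitary library whose count column is numbered 3, while the labels number that group 1, 2 and 4, so its place in the group rests on the column's genotype, tissue and cohort. The young libraries were rRNA-depleted and stranded and the older ones poly(A)-selected and unstranded, so age and library chemistry cannot be told apart in a difference between cohorts.

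The 5 mature miR-200 microRNAs that the mutated *Zeb1* escapes are shown because the search of the members' UTRs uses their seeds. The seed, bases 2 to 8, is in capitals, the sequences are 5′ to 3′, and they are from RefSeq on GRCm38.p6. They form 2 groups by seed, miR-200b, miR-200c and miR-429 in the first and miR-200a and miR-141 in the second.
mmu-miR-200b-3p: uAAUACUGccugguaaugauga
mmu-miR-200c-3p: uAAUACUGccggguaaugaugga
mmu-miR-429-3p: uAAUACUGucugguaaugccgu
mmu-miR-200a-3p: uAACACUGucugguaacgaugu
mmu-miR-141-3p: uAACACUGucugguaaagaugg
The mature sequences lie in 2 clusters, with *Mir200b* at chr4:156055685-156055706, *Mir429* at chr4:156053916-156053937 and *Mir200a* at chr4:156054911-156054932 in one, and *Mir200c* at chr6:124718324-124718346 and *Mir141* at chr6:124717917-124717938 in the other, all on the minus strand.

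The letters that pair with these seeds, CAGTATT for the first group and CAGTGTT for the second, were searched in the longest annotated 3′ UTR of each protein-coding gene (GENCODE M21, sense strand only, matches to the motifs cannot overlap). *Esrp1* (2059 bases), *Esrp2* (1175 bases) and *Rbm47* (2657 bases) held 0 matches to either, whereas 13.3% and 17.2% of 21020 UTRs held CAGTATT and CAGTGTT. The *Zeb1* UTR searched in the same way held 5 and 4 matches. The promoter table used here holds windows for *Rbm47* and none for the other 2 members. The ZEB-binding box, CAGGTG or CAGGTA on either strand, was in 0 of the 3 *Rbm47* windows around annotated starts and in 29.5% of 32851 windows of all genes. A missing match says only that these letters are not in the window.

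*Esrp1* (ENSMUSG00000040728) lies at chr4:11331933-11386783, *Esrp2* (ENSMUSG00000084128) at chr8:106130319-106136974 and *Rbm47* (ENSMUSG00000070780) at chr5:66016549-66173118, all on the minus strand of GRCm38. Exons of *Esrp2* share 219 bases with the protein-coding gene *Nfatc3* and 119 with *1810019D21Rik*, both on the opposite strand, and those of *Esrp1* share 127 bases with the opposite-strand lincRNA gene *Gm26663*. Exons of *Rbm47* share 112 bases with the antisense gene *Gm26725* and 276 with *Gm43323* on its own strand. In the older libraries, which carry no strand, reads of such bases cannot be assigned to one gene. Those shared with *Gm43323* cannot be assigned by strand in the young libraries either.

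Total counts per library ranged from 3321845 in young hypothalamus to 14655095 in older ovary, which sets the precision of low levels such as those of *Esrp2* in pituitary. In the knock-in check, *Zeb1* rose in mutant pituitary, from 93.9 to 98.5 counts per 1000000 (CPM) in young WT libraries to 127 to 136 in 200H and 133 to 145 in 200M, and from 54.9 to 62 in older WT to 70.2 to 76.1 in 200H and 79.6 to 91.6 in 200M. These changes were called in each case (log2 fold change 0.52 and 0.55 for 200M, 0.44 and 0.33 for 200H, young and older, adjusted p at most 0.0139), while *Zeb2* was not called. Against the tissue labels, 11 hormone-cell markers summed to 66500 to 331000 CPM in pituitary and at most 165 elsewhere, and 9 oocyte markers to 175 to 513 CPM in ovary and at most 6.73 elsewhere. The neuronal list reached 1460 to 3060 CPM in hypothalamus and at most 17.9 in ovary, but it holds *Pomc*, which corticotrophs express, and was at 1110 to 24800 CPM in pituitary.

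In WT mice the members divided by tissue. *Esrp1* was highest in pituitary, whereas *Esrp2* and *Rbm47* were highest in ovary, and each had its lowest mean in hypothalamus. *Esrp1* was at 81.9, 79.3 and 72.7 CPM in the 3 young WT pituitaries and at 19.9, 21.1, 19.3 and 17.6 in the 4 young WT ovaries, so that the tissues did not overlap, and it was 4.58-fold higher in pituitary (95% interval 4 to 5.24, adjusted p = 7.5e-12). In older mice the levels were 84.6, 82.9, 80.3 and 79.9 CPM in pituitary and 23.9, 10.6, 11.1 and 6.48 in ovary (8.28-fold, adjusted p = 1.04e-05). The tissues again did not overlap. Tissue differences were called for most genes, 68.3% of those tested between young pituitary and ovary and 77.0% between older ones. The share of all genes whose tissues did not overlap was not counted. In older mice ovary was counted with another tool and annotation than pituitary and hypothalamus. Tissue and counting thus cannot be told apart in any older WT contrast of ovary with another tissue, here and below.

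*Esrp2* ran the other way. It was at 1.74, 3.74 and 2.22 CPM in young WT pituitary against 14.4, 12, 12.5 and 13.4 in young WT ovary, a 4.48-fold difference in favour of ovary (adjusted p = 6.27e-07). The older cohort gave 2.76, 3.24, 3 and 4.49 CPM in pituitary and 21.3, 17.4, 18.4 and 25.9 in ovary (4.6-fold, adjusted p = 3.27e-06). *Rbm47* showed the widest gap, at 15.4, 15.8 and 14.7 CPM in young WT pituitary and 192, 234, 268 and 221 in young WT ovary (13.1-fold higher in ovary, adjusted p = 1.58e-13). In older mice it was at 4.14, 3.59, 4 and 4.27 CPM in pituitary and 98.6, 79.8, 86.4 and 118 in ovary (18.2-fold, adjusted p = 5.67e-09). Its hypothalamic levels lay below both, and it was 4.09-fold and 5.01-fold higher in young and older pituitary than in hypothalamus (adjusted p = 2.9e-08 and 8.9e-06). In ovary it was 51.9-fold and 88-fold higher than in hypothalamus (adjusted p = 1.19e-18 and 6.43e-09). Pituitary and hypothalamus differed in 72.2% and 76.8% of genes tested, young and older, and ovary and hypothalamus in 76.7% and 82.6%.

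Per kilobase of exon, which allows genes to be compared, *Esrp1* led in WT pituitary at 12.4 ± 0.747 CPM per kilobase (SD, n = 3) in young and 13 ± 0.353 (n = 4) in older mice. *Rbm47* followed at 2.14 ± 0.0807 in young pituitary and *Esrp2* at 0.591 ± 0.241, but in older pituitary the order of these members was turned, with 0.558 ± 0.041 for *Rbm47* and 0.777 ± 0.177 for *Esrp2*. In WT ovary *Rbm47* led at 31.9 ± 4.42 (young) and 13.4 ± 2.37 (older). *Esrp1* and *Esrp2* were within their spread of each other in young ovary (3.09 ± 0.234 and 3.01 ± 0.247), whereas *Esrp2* was higher in older ovary (4.78 ± 0.873 against 2.07 ± 1.2, n = 4 each). The likeness in young ovary depends on the length used. Per kilobase of the longest transcript, *Esrp1* was at 5.04 ± 0.381 and *Esrp2* at 3.7 ± 0.303 there. These per-length orders were not tested. *Esrp1* was 95.5% ± 1.72 (SD, n = 3) of the *Esrp1* and *Esrp2* sum per kilobase in young WT pituitary and 94.4% ± 1.29 (n = 4) in older, and 50.6% ± 3.23 and 29.3% ± 11.8 in young and older WT ovary (n = 4 each). The older ovary libraries spanned 14.7% to 43.6%. By the longest transcript the means were 57.6% in young and 35.2% in older WT ovary.

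**Figure D1:**
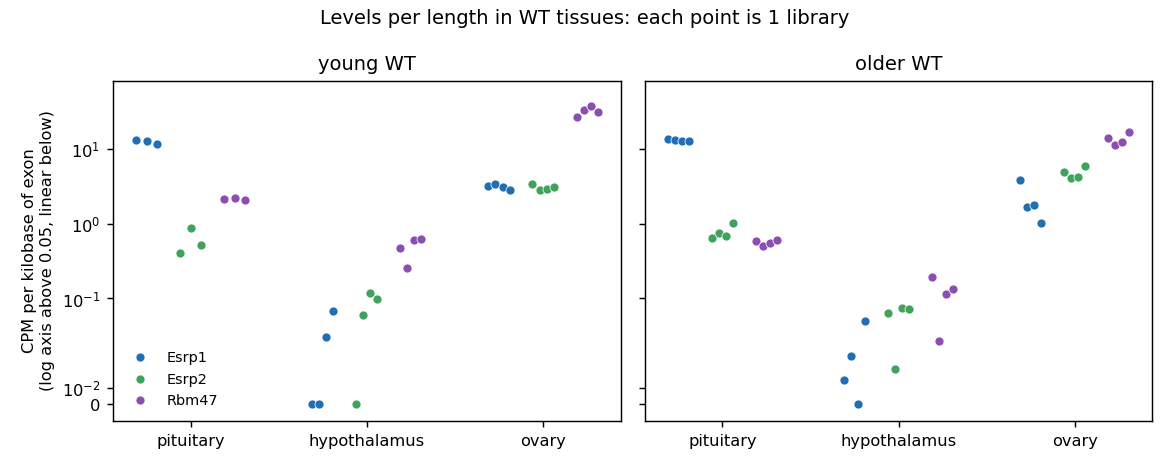
Levels of the members in WT libraries of the young and older cohorts, in CPM per kilobase of exon on an axis that is logarithmic above 0.05 and linear below. Each point is 1 library, and *Esrp1* leads in pituitary, *Rbm47* in ovary, while the hypothalamus holds little of either ESRP gene.

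The comparison of mutants with WT asks whether *Zeb1* that escapes miR-200 alters the splicing regulators. In pituitary *Esrp1* fell in each mutant and cohort. In young mice it dropped from 81.9, 79.3 and 72.7 CPM in WT to 8.86, 7.04, 8.81 and 7.35 in 200H and to 3.96, 5.33, 6.15 and 6.05 in 200M. Every mutant library lay far below WT, and no groups overlapped. The decrease was 9.79-fold in 200H (log2 fold change -3.29 ± 0.104 SE, adjusted p = 1.76e-09) and 14.7-fold in 200M (-3.88 ± 0.121, adjusted p = 6.9e-11).

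In older pituitary *Esrp1* was at 84.6, 82.9, 80.3 and 79.9 CPM in WT, at 6.63, 6.18, 5.75 and 4.88 in 200H and at 5.65, 5.42 and 4.5 in 200M. WT stood apart from both mutants, and the mutants overlapped each other. The decrease was 13.9-fold in 200H (log2 fold change -3.8 ± 0.106, adjusted p = 8.54e-10) and 15.6-fold in 200M (-3.96 ± 0.116, adjusted p = 2.9e-09). Of *Esrp1* transcripts, 22 to 102 counts remained in each mutant library. In whole pituitary, fewer cells with the transcript and less transcript per cell cannot be told apart.

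*Esrp2*, the lesser paralog in this tissue, fell as well, from a much lower level. Young WT libraries had 17, 34 and 21 counts (1.74, 3.74 and 2.22 CPM), 200H libraries 9, 12, 9 and 12 (0.782, 1.03, 0.911 and 1.24 CPM) and 200M libraries 9, 15, 5 and 10 (0.698, 1.25, 0.375 and 1.23 CPM). The mutants overlapped each other but not WT. The decrease was 2.59-fold in 200H (log2 fold change -1.37 ± 0.368, adjusted p = 0.028) and 2.97-fold in 200M (-1.57 ± 0.426, adjusted p = 0.016). These calls rest on single libraries. Without WT replicate 2, which had the highest level, *Esrp2* differed by -1.0 in 200H (adjusted p = 0.153) and -1.19 in 200M (adjusted p = 0.105). The 200M call was also lost without 200M replicate 3 (-1.28, adjusted p = 0.0501), and the 200H call without WT replicate u (-1.46, adjusted p = 0.0657) or 200H replicate 1 (-1.27, adjusted p = 0.0701).

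In older pituitary *Esrp2* had 20, 37, 15 and 41 counts in WT (2.76, 3.24, 3 and 4.49 CPM), 3, 6, 1 and 8 in 200H (0.349, 0.64, 0.198 and 0.848 CPM) and 5, 3 and 4 in 200M (1.05, 0.387 and 0.818 CPM). Again WT did not overlap the mutants. The decrease was 6.05-fold in 200H (log2 fold change -2.6 ± 0.344, adjusted p = 0.000401) and 4.76-fold in 200M (-2.25 ± 0.384, adjusted p = 0.00155). In this cohort *Esrp2* passed the filter on low counts through the WT libraries alone, with 0 mutant libraries above its floor. A gene kept in this way had to be lower in the mutants, and with all WT libraries above the floor the groups could not overlap.

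*Rbm47* was not called in pituitary. In young mice it was at 15.4, 15.8 and 14.7 CPM in WT, at 18.5, 17.1, 21.9 and 18.6 in 200H and at 16.5, 13.8, 13.6 and 17.8 in 200M. The 200H libraries were all above WT, and the 200M libraries lay on both sides of it. The log2 fold change was 0.3 in 200H (95% interval 0.04 to 0.56, adjusted p = 0.13) and -0.0024 in 200M (-0.28 to 0.28, adjusted p = 0.993). In older mice it was at 4.14, 3.59, 4 and 4.27 CPM in WT, at 3.14, 6.29, 3.96 and 5.3 in 200H and at 5.23, 4.52 and 4.5 in 200M. The 200M libraries were just above WT, and 200H spanned it. It differed from WT by 0.25 in 200H (-0.25 to 0.76, adjusted p = 0.53) and 0.26 in 200M (-0.19 to 0.71, adjusted p = 0.407). The 200M intervals reach a decrease of at most 1.22-fold in the young and 1.14-fold in the older cohort.

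In young pituitary 2 of the 3 members, *Esrp1* and *Esrp2*, were called lower and 0 higher in each mutant. *Esrp2* entered these tests mainly through WT, with all 3 WT libraries but only 2 of each mutant above the filter's floor. In older pituitary *Esrp1* was called lower in each mutant, and the *Esrp2* calls are not counted because the filter fixed their direction. Of all genes tested, 10.0% were lower in young 200M, 5.72% in young 200H, 9.77% in older 200M and 5.14% in older 200H, and 11.5%, 6.56%, 11.7% and 7.09% were higher. Libraries that did not overlap between mutant and WT were found for 28.7%, 23.1%, 31.5% and 17.2% of genes in these comparisons. *Esrp1* was such a gene throughout and *Esrp2* in young pituitary, while for older *Esrp2* the filter fixed this as well. *Rbm47* was such a gene in young 200H and in older 200M, with the mutant higher, and was not called in either. The 200M and 200H comparisons share their WT libraries, so they are not independent.

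**Figure D2:**
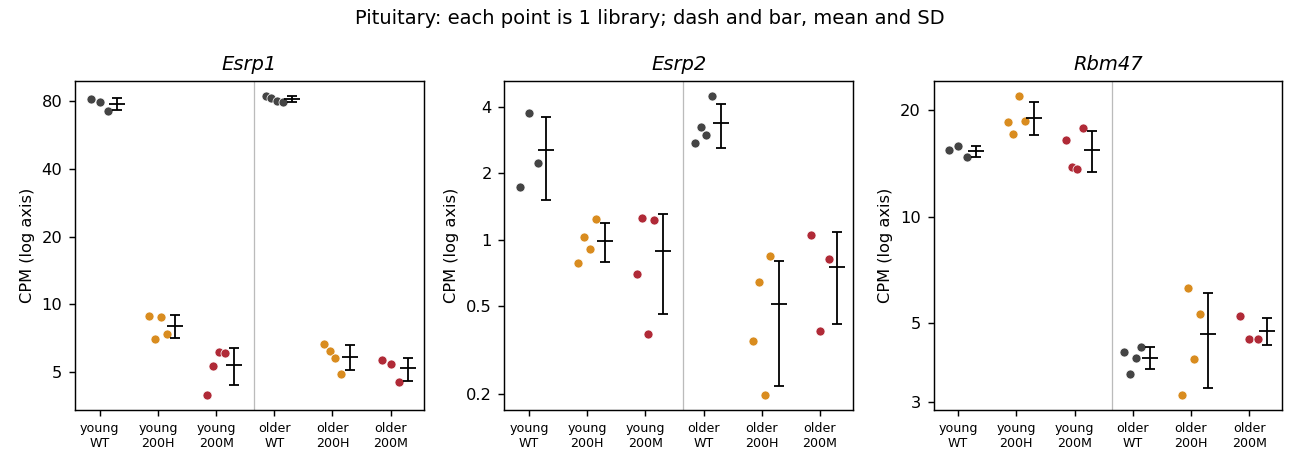
CPM of *Esrp1*, *Esrp2* and *Rbm47* in each pituitary library, on log axes that differ between panels, with the mean and SD of each group beside the points. WT stands above both mutants for *Esrp1* and *Esrp2* in each cohort, and *Rbm47* shows no such step.

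The 2 mutants were compared directly to see whether 1 altered allele had less effect than 2. In young pituitary *Esrp1* was lower in 200M than in 200H without overlap (3.96 to 6.15 against 7.04 to 8.86 CPM), a log2 difference of -0.58 (95% interval -0.96 to -0.21), but it did not pass the adjustment (adjusted p = 0.504, 7 of 18271 genes called, 0.0383%). Groups did not overlap for 3.27% of genes here. In older pituitary the difference was -0.17 (-0.6 to 0.27, adjusted p = 0.819, 0.121% of genes called). *Rbm47* differed by -0.3 (-0.57 to -0.04, adjusted p = 0.778) in young pituitary, where 3 of the 4 200M libraries were below each 200H library, and by -0.0055 (-0.57 to 0.56, adjusted p = 0.997) in older pituitary. *Esrp2* differed by -0.2 (-1.08 to 0.68, adjusted p = 0.998) in young pituitary and was too low to be tested in older pituitary.

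The share of *Esrp1* among the ESRP transcripts was lower in the mutants. *Esrp1* was 95.5% of the ESRP sum per kilobase in young WT pituitary (93.6% to 97%), 84.6% ± 3.85 in 200H and 80.8% ± 7.65 in 200M, with the highest mutant library at 91.9%. In older pituitary it was 94.4% ± 1.29 in WT, 88.7% ± 6.87 in 200H and 82.8% ± 6.74 in 200M, and 200H reached 95.2%, within the WT range of 92.5% to 95.5%. With so few *Esrp2* counts these shares are imprecise and were not tested. The sum itself fell from 13 ± 0.82 CPM per kilobase in young WT to 1.5 ± 0.119 in 200H and 1.06 ± 0.193 in 200M.

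Several lists of cell markers also differed between genotypes in pituitary, while the stem-cell sums of WT and 200M overlapped in both cohorts. The shares of all genes called higher and lower were 11.5% and 10.0% in young 200M and 11.7% and 9.77% in older 200M. The summed hormone-cell markers were 161000 to 185000 CPM in young WT pituitary and 66500 to 89000 in 200M, and 287000 to 331000 and 164000 to 209000 in older mice, and of the 11 genes 4 (young) and 3 (older) were called lower in 200M, among them *Prl*, *Cga* and *Lhb*, while *Pomc* was called higher in older 200M. Stem-cell markers were at 90.3 to 116 CPM in young WT and 96.1 to 115 in 200M, and of 4 tested genes 0 were called in young and 1, *Sox9*, higher in older 200M. Macrophage markers were at 68.6 to 83.3 CPM in young WT and 96.6 to 117 in 200M (4 of 12 tested genes called higher) and at 127 to 156 and 173 to 245 in older mice (3 of 14), and none of their 14 genes was at 0. Markers of choroid plexus and ependyma were at 80.7 to 92.5 CPM in young WT, 102 to 147 in 200H and 97.9 to 145 in 200M, and at 69.7 to 102, 105 to 123 and 112 to 121 in older mice, without overlap of WT and mutants. Of the 6 tested in each, *Kl* and *Aqp1* were called higher in both young mutants and *Aqp1* in older 200M, and *Kcnj13* was at 0 in older WT. The neuronal list was at 1110 to 1430 CPM in young WT and 1260 to 1600 in young 200M, with 1 of 5 tested genes higher. In older mice the neuronal list, which holds *Pomc*, was at 9080 to 12400 CPM in older WT and 11800 to 24800 in older 200M, with 4 of 5 tested genes higher and *Pmch* and *Crh* at 0 in both groups. The part of such changes in the levels of the members was not tested.

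Other splicing regulators moved in both directions. Of 17 regulators tied to epithelial-mesenchymal change, 6 were called higher and 2 lower in young 200M pituitary (median log2 fold change of the list 0.12, of all genes 0.002), and 5 and 1 of 16 tested in older 200M (median 0.18, all genes -0.013). In 200H the counts were 5 and 1 of 17 in young and 2 and 0 of 17 in older pituitary. The shares of all genes called higher and lower were 11.5% and 10.0% in young 200M and 11.7% and 9.77% in older 200M. In young and older 200H they were 6.56% and 5.72%, and 7.09% and 5.14%. *Rbfox1*, a neuronal and muscle regulator that binds UGCAUG, rose 2.88-fold in young 200M (adjusted p = 1.42e-05) and 4.38-fold in older 200M (adjusted p = 1.42e-05), and also in 200H (2.46-fold and 3.19-fold, adjusted p = 0.00158 and 0.000757). *Rbfox2*, its widely expressed relative, rose 1.3-fold and 1.42-fold in young and older 200M, and *Qk*, a regulator of mesenchymal splicing, 1.16-fold and 1.33-fold (adjusted p at most 0.0352). *Ptbp1*, a repressor of neuronal exons, fell 1.27-fold in young 200M (adjusted p = 0.000634) and 1.34-fold in older 200M (adjusted p = 0.00382). The neuronal regulator *Nova2* rose 1.37-fold and 1.32-fold. *Rbm24*, a muscle regulator, rose 2.81-fold in young 200M (adjusted p = 0.00867) and 2.7-fold in young 200H (adjusted p = 0.0483), and was too low to be tested in older 200M.

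**Figure D3:**
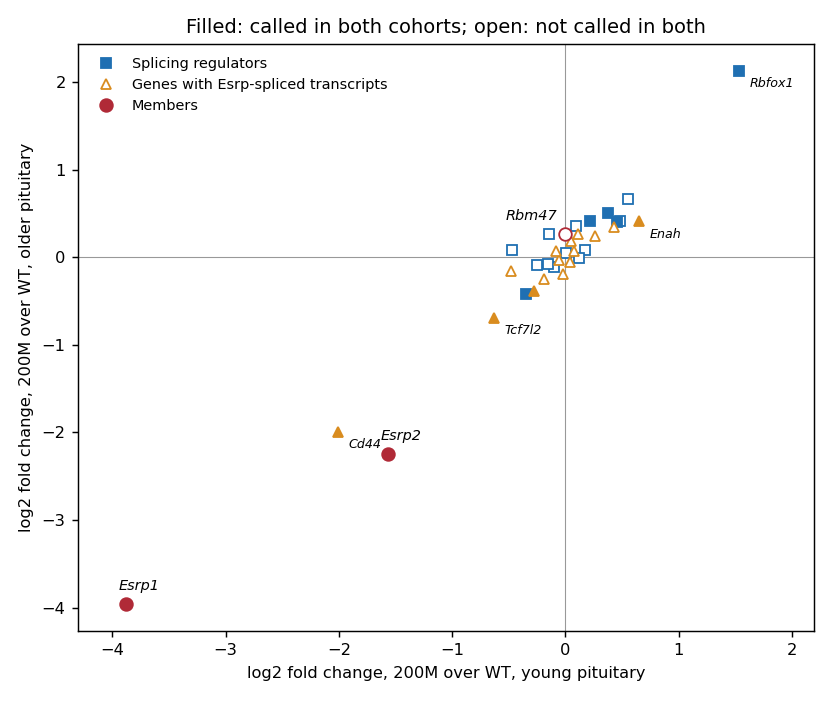
Log2 fold changes of 200M over WT in young (horizontal) and older (vertical) pituitary for the members, other splicing regulators and genes with Esrp-spliced transcripts, 1 of which is not drawn. Filled symbols were called in both cohorts. *Esrp1*, *Cd44* and *Esrp2* lie far below 0 in both, *Rbfox1* far above, and *Rbm47* near 0. For *Esrp2* in older pituitary the filter on low counts fixed the direction.

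Relatives of the members by their RNA-binding domains were not called. Of 10 such genes, including *Hnrnpf* and *Hnrnph1*, 8 could be tested and 0 were called in any of the 4 comparisons of a mutant with WT in pituitary (median log2 fold change -0.07 to -0.05). Among all genes tested, 21.5% were called in young 200M, 12.3% in young 200H, 21.4% in older 200M and 12.2% in older 200H. With 8 genes, 0 calls are not far from these shares. Among the RNA editing partners of *Rbm47*, the deaminase gene *Apobec1* changed by 0.45 in young 200M (adjusted p = 0.078) and 0.24 in older 200M (adjusted p = 0.282), and *Syncrip* by -0.17 (adjusted p = 0.118) and 0.03 (adjusted p = 0.91). *A1cf* was too low to be tested.

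The genes whose transcripts ESRP proteins splice were counted as whole genes, so their isoforms are not resolved. Of 16 such genes, 3 were called higher and 3 lower in young 200M pituitary, 2 and 3 in older 200M, 2 and 2 in young 200H, and 3 and 2 in older 200H, with list medians of -0.01 to 0.02. Among all genes tested, 11.5% were higher and 10.0% lower in young 200M, and 11.7% and 9.77% in older 200M. In young and older 200H the shares were 6.56% and 5.72%, and 7.09% and 5.14%. With 16 genes, the list counts are not far from these shares. *Cd44*, a hyaluronan receptor with variable exons, fell 4.03-fold in young and 3.98-fold in older 200M (adjusted p = 6.73e-08 and 2.36e-05) and 4.05-fold and 5.27-fold in 200H. *Tcf7l2*, a mediator of Wnt signals, fell 1.55-fold and 1.62-fold in 200M, and *Ctnnd1*, which encodes p120 catenin, 1.21-fold and 1.3-fold. *Enah*, an actin regulator, rose 1.56-fold and 1.33-fold in 200M (adjusted p = 1.82e-06 and 0.00432). For *Fgfr2*, whose mutually exclusive exons are the classic ESRP substrate, 200M differed from WT by 0.26 in young (adjusted p = 0.189) and 0.24 in older pituitary (adjusted p = 0.419), on the log2 scale.

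Regulators of the epithelial state were mixed. Of the repressors, *Zeb1* rose and *Snai2* fell in young 200M (2.3-fold, adjusted p = 0.00185), young 200H (2.19-fold, adjusted p = 0.00917) and older 200M (2.51-fold, adjusted p = 0.0156). Of the activators, 5 of 9 could be tested. The ETS factor *Ehf* fell 4.33-fold and 4.76-fold in young and older 200M and 4.95-fold and 3.93-fold in 200H, and *Klf5* fell 1.57-fold in young 200M and 1.54-fold in young 200H. Genes of epithelial adhesion and polarity fell with *Esrp1*: 14 of 18 tested were called lower in young 200M and 14 of 18 in older 200M, 11 of 18 in young 200H and 16 of 19 in older 200H, and 0 higher in each. Their median log2 fold changes were -1.3, -1.32, -1.03 and -1.11. Among all genes tested, 10.0% were lower in young 200M, 9.77% in older 200M, 5.72% in young 200H and 5.14% in older 200H. The medians of all genes were 0.002, -0.013, 0.007 and -0.008 in that order. This list was chosen with earlier results of these data known. *Epcam*, an adhesion molecule of epithelia, fell 9.78-fold in young 200M (adjusted p = 6.9e-11) and *Rab25*, a GTPase of apical recycling, 13.5-fold in older 200M (adjusted p = 1.92e-08).

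In ovary *Esrp1* and *Esrp2* were not called. *Esrp1* was at 19.9, 21.1, 19.3 and 17.6 CPM in young WT, at 17, 19.8, 13.3 and 19.1 in 200H and at 22.6, 17.6, 24.2 and 18.4 in 200M. The groups overlapped. The log2 fold change was -0.12 in 200H (95% interval -0.41 to 0.18, adjusted p = 0.908) and 0.1 in 200M (-0.18 to 0.39, adjusted p = 0.768), so a decrease of more than 1.13-fold lay outside the 200M interval. *Esrp2* was at 14.4, 12, 12.5 and 13.4 CPM in young WT, at 8.38, 13.1, 11.8 and 10.3 in 200H and at 10.9, 9.46, 11 and 8.27 in 200M. All 200M libraries were below WT, yet the difference did not pass the adjustment (log2 fold change -0.39, -0.69 to -0.09, adjusted p = 0.17), and the 200H libraries overlapped WT (-0.21, adjusted p = 0.85).

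*Rbm47* was the member that changed in ovary. In young mice it was at 192, 234, 268 and 221 CPM in WT, at 117, 196, 172 and 149 in 200H and at 140, 180, 96.4 and 101 in 200M. The 200M libraries were all below WT, while 200H touched its lower end. It fell 1.75-fold in 200M (log2 fold change -0.81 ± 0.151, adjusted p = 0.015), and by 0.47 on the log2 scale in 200H without passing the adjustment (adjusted p = 0.467). It was the 1 member of 3 called in young 200M ovary, where 2.58% of all genes were called and 1.70% were lower and 0.878% higher, and 7.29% of genes had groups that did not overlap. The call was lost without 200M replicate 1 (-0.84, adjusted p = 0.0561) or 200M replicate 3 (-0.71, adjusted p = 0.0588), and with the 3 genotypes in one fit (-0.81, adjusted p = 0.0503). In young 200H ovary 0.00510% of genes were called.

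**Figure D4:**
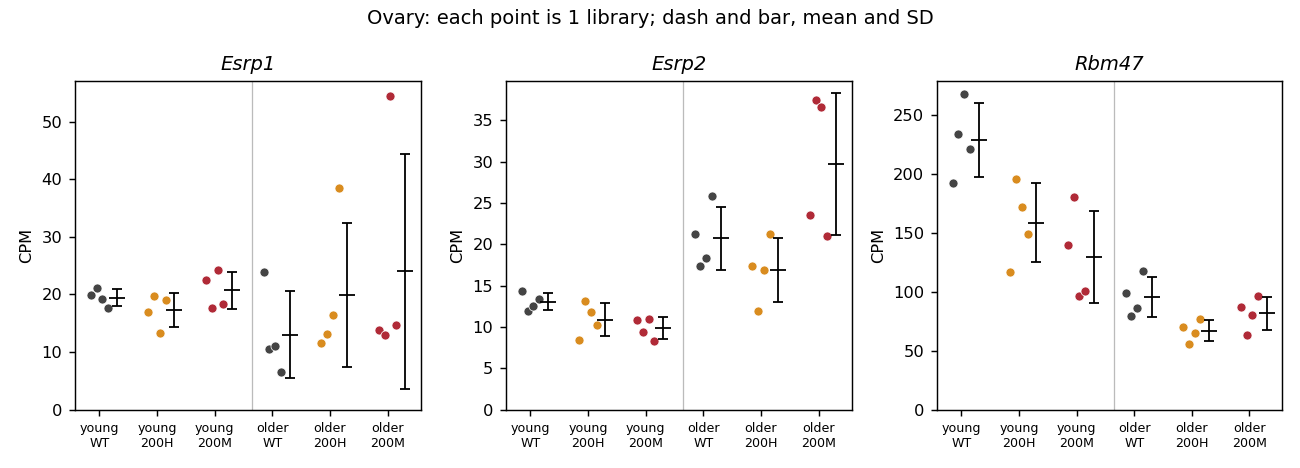
CPM of the members in each ovary library, on linear axes from 0 with the mean and SD of each group beside the points. *Rbm47* is lower in young 200M than in WT, and *Esrp1* scatters widely in the older cohort, where 1 library of 200H and 1 of 200M stand high.

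Summed markers of ovarian cells overlapped between WT and 200M in the young cohort, and few of their genes were called. Granulosa, theca and luteal markers were at 3970 to 5140 CPM in WT and 2730 to 5270 in 200M, with 1 of 9 called, *Cyp11a1*, the first enzyme of steroid synthesis, which fell 1.61-fold. Markers of surface and oviduct epithelium were at 316 to 637 CPM in WT and 83.1 to 631 in 200M, and 2 of 8 tested fell, *Krt7* (2.21-fold) and *Upk1b* (2.27-fold). Macrophage markers were at 278 to 368 CPM in WT and 252 to 282 in 200M, with 1 of 14 lower, *Mrc1* (1.42-fold), and oocyte markers at 263 to 374 and 310 to 501, with 0 of 9 called. Their part in the *Rbm47* difference was not tested.

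In older ovary *Rbm47* was at 98.6, 79.8, 86.4 and 118 CPM in WT, at 70.1, 55.5, 65.2 and 76.8 in 200H and at 87.5, 63, 80.4 and 96.4 in 200M. The 200H libraries were below all WT libraries and 200M overlapped WT. Neither difference was called (log2 fold change -0.49 in 200H, 95% interval -0.81 to -0.17, adjusted p = 0.748, and -0.21 in 200M, -0.58 to 0.15, adjusted p = 0.528). Groups did not overlap for 4.21% of genes in older 200H ovary. *Esrp2* was at 21.3, 17.4, 18.4 and 25.9 CPM in older WT, at 17.4, 11.9, 16.9 and 21.3 in 200H and at 23.6, 37.5, 36.6 and 21 in 200M. Here 2 of the 200M libraries exceeded all WT libraries, and the difference was not called (0.52, 0.03 to 1.02, adjusted p = 0.272).

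*Esrp1* varied more between older ovaries than between genotypes. It was at 23.9, 10.6, 11.1 and 6.48 CPM in WT, at 11.5, 13.1, 16.5 and 38.4 in 200H and at 13.9, 12.9, 54.5 and 14.7 in 200M. WT replicate 1, 200H replicate 4 and 200M replicate 3 were the highest of their groups. The log2 fold change was 0.64 in 200H (-0.47 to 1.74, adjusted p = 0.798) and 0.87 in 200M (-0.38 to 2.12, adjusted p = 0.457). The same 3 libraries had the most *Epcam* of their groups (52.9, 77.3 and 109 CPM) and the highest sums of epithelial markers (1040, 3510 and 3750 CPM, against 67.6 to 566 in the other 9 libraries). *Epcam* did not follow *Esrp1* in each library, since WT replicate 4 had the lowest *Esrp1* of all and 45 CPM of *Epcam*. How much tissue of the surface or oviduct each older ovary held was not tested. In older 200M ovary the macrophage markers were also higher than in WT, at 670 to 1280 against 301 to 572 CPM, with 4 of 14 called. Granulosa, theca and luteal markers were lower, at 3250 to 9690 CPM against 9670 to 23500 in WT. The part of these changes in the levels of the members was not tested. Of the members, 0 of 3 were called in older 200M ovary, where 2.71% of genes were.

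No member was called between 200M and 200H ovaries. The log2 differences in young ovary were 0.23 for *Esrp1* (-0.12 to 0.58), -0.17 for *Esrp2* (-0.56 to 0.22) and -0.33 for *Rbm47* (-0.75 to 0.08), each with an adjusted p of 0.999. In older ovary they were 0.25 for *Esrp1* (adjusted p = 0.922), 0.8 for *Esrp2* (adjusted p = 0.191) and 0.28 for *Rbm47* (adjusted p = 0.503), where 1.61% of genes were called.

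The hypothalamus held almost no *Esrp1* or *Esrp2*. The 12 young libraries had 0 to 2 *Esrp1* counts each and the 11 older ones 0 to 4, and *Esrp2* had 0 to 3 and 0 to 8. In young 200M hypothalamus *Esrp1* had 0 counts in all 4 libraries, which allows a level of up to 0.186 CPM over the group (3 counts of their total, covering counting error only), while 0.171 ± 0.209 CPM was measured in WT (n = 4, 3 counts in all). A difference could not be detected at this depth, and neither ESRP gene passed the filter in any comparison of genotypes. *Esrp2* had 4, 8 and 5 counts in older 200M and 3, 1, 4 and 4 in WT, which did not overlap as CPM, as was so for 15.8% of the genes tested there. Hormone-cell markers reached 165 CPM in hypothalamus, far below the pituitary.

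*Rbm47* was low in hypothalamus but measurable. In young mice it was at 3.42, 1.85, 4.33 and 4.49 CPM in WT, at 2.69, 2.26, 2.41 and 2.9 in 200H and at 9.11, 2.77, 1.74 and 2.05 in 200M. The 200M replicate 1 stood above all other libraries and the rest overlapped. The 200M difference was 0.1 (-0.81 to 1.01, adjusted p = 0.981) and the 200H difference -0.46 (-1.22 to 0.29, adjusted p = 0.998). In older mice it was at 1.4, 0.273, 0.821 and 0.942 CPM in WT, at 1.16, 0.719, 1.09 and 0.894 in 200H and at 1.68, 1.08 and 0.928 in 200M, again with overlap (200M 0.5, -0.43 to 1.43, adjusted p = 0.567, and 200H 0.17, -0.67 to 1, adjusted p = 1). At 3 to 33 counts per library only large changes could have been seen. Called genes were 0.0200% in young 200M, 0.0202% in young 200H and 0.00622% in older 200M hypothalamus.

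**Figure D5:**
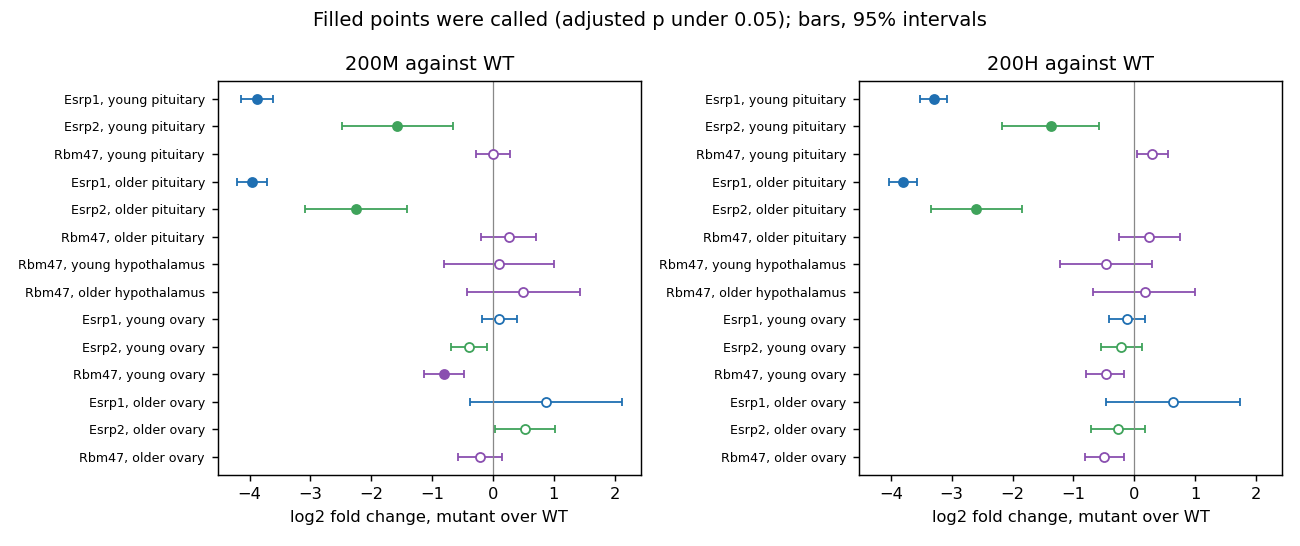
Log2 fold changes of each member that could be tested, 200M (left) and 200H (right) over WT, in each tissue and cohort, with 95% intervals. Filled points were called, namely *Esrp1* and *Esrp2* in pituitary and *Rbm47* in young 200M ovary. For *Esrp2* in older pituitary the filter on low counts fixed the direction of both calls.

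Whether the 200M effect differed between tissues was tested as an interaction. Here and in the WT tissue contrasts, libraries of different tissues entered as independent. Whether they came from the same mice was not known. In young mice the *Esrp1* change in pituitary was -3.97 ± 0.187 log2 units from that in ovary (adjusted p = 3.33e-11), and in older mice -4.82 ± 0.701 (adjusted p = 0.00147). *Esrp2* differed by -1.19 (-2 to -0.37, adjusted p = 0.06) in young and by -2.74 ± 0.44 (adjusted p = 0.00267) in older mice. *Rbm47* differed in the opposite sense, by 0.81 ± 0.236 in young mice (adjusted p = 0.0313) and by 0.49 (-0.03 to 1.02, adjusted p = 0.261) in older mice. In this contrast 10.1% of young and 5.77% of older genes were called, against 2 of 3 members in each. The young *Rbm47* call was lost without any of 8 of the 15 libraries, 1 at a time, with adjusted p of up to 0.0747.

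Against hypothalamus in older mice, the difference was -4.08 ± 0.875 for *Esrp1* (adjusted p = 0.00371) and -3.08 ± 0.651 for *Esrp2* (adjusted p = 0.00336), with 17.5% of genes called. Both passed the filter on low counts through pituitary alone, with 0 hypothalamus libraries above the floor and at most 8 counts in each, so these values restate the pituitary decrease. In addition the *Esrp1* difference was -3.11 without older 200M hypothalamus replicate 1 (adjusted p = 0.127). In young mice the fitted *Esrp1* difference was -0.3 (-1.25 to 0.65, adjusted p = 0.772), in a fit where each 200M hypothalamus library had 0 counts and the WT ones at most 2. *Rbm47* differed by -0.079 (adjusted p = 0.95) in young and -0.24 (adjusted p = 0.773) in older mice. The 200M effect in pituitary was not shown to differ between cohorts for *Esrp1* (0.13, -0.27 to 0.54), *Esrp2* (0.73, -0.63 to 2.09) or *Rbm47* (-0.21, -0.69 to 0.28), with adjusted p of 0.866 or more and 0.0273% of genes called.

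Genes most alike to each member over the 18 group means were found by Pearson's r of log2 CPM centred within cohort, among 13134 genes. The points share tissues and libraries, so r mostly reflects tissue. For *Esrp1* they were the kinesin gene *Kif18a* (r = 0.978), *Ehf* (0.977), the epithelial myosin gene *Myo5c* (0.976), *Tmem184a* (0.973) and *Dmrta1* (0.97). *Epcam* had an r of 0.908 to *Esrp1* and *Zeb1* one of -0.771. For *Esrp2* they were *Capn1* (0.991), *Ctdsp2* (0.985), *Lrrc8e* (0.985), *Dnase1l1* (0.982) and the splicing regulator *Hnrnpm* (0.982). For *Rbm47* they were the endothelial receptor gene *Cd93* (0.996), *Hadha* (0.995), the lysosomal gene *Lamp2* (0.995), *C1s1* (0.995) and *Pcolce* (0.995). *Esrp2* was closer to *Rbm47* (0.962) than to its paralog *Esrp1* (0.733), and *Epcam* had an r of 0.451 to *Esrp2* and 0.466 to *Rbm47*.

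Within the 11 young pituitary libraries, where genotype is the main difference, the genes closest to *Esrp1* were *Epcam* (r = 0.993), *Arhgef5* (0.992), the desmosomal cadherin gene *Dsg2* (0.992), *Cfap61* (0.991) and *Dmpk* (0.99), and their r over the 11 older pituitary libraries was 0.982, 0.99, 0.992, 0.882 and 0.908. For *Rbm47* the closest were *Gm43343* (0.927), *Acot6* (0.851), *Rgma* (0.844), *Zmym5* (0.834) and *Dab2* (0.82), and in older pituitary these gave 0.631, -0.166, 0.451, 0.478 and 0.549. *Esrp2* had too few counts there for this comparison.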

How the data were processed

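RNA was sequenced from pituitary, hypothalamus and ovary in 69 libraries, which the study's methods call biological replicates. Reads were aligned with STAR 2.7.1a to mm10, and the authors deposited raw counts per gene, made with featureCounts for the young libraries and older ovary and with HTSeq 0.9.1 for older pituitary and hypothalamus. The gene annotation was from Gencode in the first case and from Ensembl in the second. The tables also hold the authors' own DESeq2 fold changes and p-values, which were not used, and 3 further count columns, not tied to a sample here, were not used. Groups are cohort, tissue and genotype per the labels.

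For each comparison, only its own libraries entered a model of raw counts in edgeR 4.0.16 (with limma 3.58.1 under R 4.3.3). Libraries were scaled by TMM, low genes removed by filterByExpr, and the quasi-likelihood test adjusted by Benjamini-Hochberg over all genes tested. A gene was called at an adjusted p under 0.05. The SE was taken as the absolute log2 fold change divided by the root of its F statistic, and intervals are 95%. CPM used TMM factors of a tissue and cohort, per kilobase of merged exons or of the longest transcript (GENCODE M21, GRCm38) where so stated. A level of 0 is limited by 3 counts. Likeness used log2(CPM + 0.5) where the mean count was 50 or more. The code was tested on simulated data. Within groups, 99 pairs of libraries all differed by more than sampling noise. Alternatives were DESeq2 1.42.0, other scaling, no filter, a replicate block, the 3 genotypes in one fit, and leaving out each library.

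The members and gene lists were chosen with earlier results of these data known. The genes named are the members, *Zeb1*, *Zeb2*, the called gene of smallest p in each direction from each list in pituitary and the 5 genes most alike to each member. Other list genes given with values were chosen after their values were seen. Of the genes with Esrp-spliced transcripts, 1 is counted in its list but not reported by name here.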

Additional observations from a re-analysis of the deposited data

Results flagged for a closer look

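Of 44 groups of 4 libraries checked, 4 held a library that lay apart from the rest, and chance alone gives this in about 1 of 20 groups of continuous values. These were *Esrp1* in older 200M ovary replicate 3 (54.5 CPM against 12.9 to 14.7 in the others), *Rbm47* in young 200M hypothalamus replicate 1 (9.11 CPM against 1.74 to 2.77), *Esrp1* in young 200H hypothalamus replicate 4 (0.58 CPM, 2 counts against 0) and *Esrp2* in young 200M hypothalamus replicate 2 (0.755 CPM, 3 counts against 0). Both of the last are differences of 3 counts or fewer. Where the rest of a group is at 0, any count sets a library apart, so the stated rate does not hold there.

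The 200M effect differed between pituitary and ovary for *Esrp1* in young (-3.97) and older mice (-4.82), for *Esrp2* in older mice (-2.74) and for *Rbm47* in young mice (0.81), each as a difference of log2 fold changes tested by interaction. Between pituitary and hypothalamus it differed in older mice for *Esrp1* (-4.08) and *Esrp2* (-3.08), but no hypothalamus library was above the filter's floor for either gene, and the *Esrp1* call was lost without older 200M hypothalamus replicate 1 (-3.11, adjusted p = 0.127).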

How the results depend on the processing

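Of 293 values of the members under other settings, 283 kept direction and side of the threshold, 3 lost and 2 gained a call and 5 changed sign. Leaving out 1 library kept 603 of 642. The limits are the few *Esrp2* counts in pituitary, the near absence of *Esrp1* and *Esrp2* from hypothalamus, and the spread of older ovaries. The cause of each change was not tested.

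In no comparison within a tissue did every same-numbered pair of libraries have deviations that correlated above 0.1, so the numbers were not taken to pair them. In young hypothalamus all 4 pairs of WT and 200M were positive, from 0.003 to 0.22. With the replicate block, *Esrp2* in young pituitary lost both calls, at -1.47 for 200M (adjusted p = 0.0588) and at -1.56 for 200H (adjusted p = 0.0516), *Rbm47* changed sign to 0.075 for 200M against 200H in older pituitary and to -0.019 for 200M in young hypothalamus, neither called, and no other member's call changed. *Rbm47* for 200M against 200H in older pituitary was also at 0.0081 with DESeq2 and 0.005 with the 3 genotypes in one fit, which gave -0.81 (adjusted p = 0.0503) for *Rbm47* in young 200M ovary. Without a filter *Rbm47* was at -0.53 in young 200H ovary (adjusted p = 0.00915, gained) and 0.032 in young 200M pituitary, and *Zeb2* at 0.0053 in young 200H pituitary. With DESeq2 the young pituitary-ovary difference of *Esrp2* was -1.18 (adjusted p = 0.0308, gained).

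Leaving out 1 library gave these ranges. In young pituitary, *Esrp2* ran from -1.82 to -1.19 in 200M, from -1.6 to -1.0 in 200H and from -0.44 to 0.089 between them, *Rbm47* from -0.08 to 0.068 in 200M and *Zeb2* from -0.075 to 0.056 in 200H. *Rbm47* ran from -0.17 to 0.18 between the mutants in older pituitary, from -0.69 to 0.35 in young 200M and -0.11 to 0.47 in older 200H hypothalamus, and from -1.0 to -0.71 in young 200M ovary, and *Esrp1* from -0.53 to 0.79 between the mutants in older ovary. For differences of the 200M effect, pituitary against hypothalamus ran from -1.22 to 0.11 (young) and -4.76 to -3.11 (older) for *Esrp1* and from -0.35 to 0.7 and -0.54 to 0.041 for *Rbm47*, young pituitary against ovary from -1.45 to -0.8 for *Esrp2* and 0.69 to 1.0 for *Rbm47*, and young against older pituitary from -0.005 to 0.2 for *Esrp1*.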
